A study of Mus musculus with 8 samples.

Results

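The genes of the major histocompatibility complex (MHC) and of antigen presentation were followed across 8 mouse liver arrays. Members were the genes whose name on the array starts with H2- (the mouse MHC) together with B2m, Cd74, Ciita, Tap1, Tap2, Tapbp, Psmb8, Psmb9, Psmb10 and Ctss. The array carried 50 such genes on 66 probes. A gene was kept if a probe of it was marked well above background by the scanner software on at least 4 of the 8 arrays, and its brightest probe stood for it. This left 37 genes among 18534 features in all: 19 class I chains, 7 genes of the class I machinery, 7 class II chains, 2 genes of the class II machinery, and 2 genes named H2- that encode no MHC chain (H2-Ke2, a prefoldin subunit, and H2-Ke6, a steroid dehydrogenase). The filter was met on 7 arrays by H2-DMa and H2-Ob and on all 8 by the other members. No measured difference was used to choose them, but the choice was made with earlier results of these data known.

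Livers came from male mice. Over 5 weeks liver fibrosis was set up with either of 2 toxic agents, CCl4 (carbon tetrachloride, which liver enzymes turn into a toxic radical) or TAA (known only by that abbreviation in the labels, usually thioacetamide). In the 1 or 2 weeks of observation that followed, either a negative control nucleotide (NC) or miR-29a, a microRNA known for repressing collagen messenger RNAs, was injected every 3 days. Every combination of an agent, a week and an oligonucleotide was a single sample on its own array, which gives 8 arrays without replicates, and no untreated liver was among the 8. Strain, age and the number of animals behind a sample are not in the labels, so the p-values measure the spread between these 8 samples only. All samples shared the fibrosis induction, so every difference below is between 2 fibrotic conditions.

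Levels are log2 processed signals relative to the array's 75th percentile, and they are compared only within a probe. The values of an agent are always listed in the order 1 week NC, 1 week miR-29a, 2 weeks NC, 2 weeks miR-29a. A difference is the mean over the matched pairs of arrays ± the standard error of the limma fit, and p-values were adjusted over all 18534 features (Benjamini-Hochberg, limit 0.05). Between 43.9% and 48.4% of the 59305 non-control spots per array were well above background and 0 were saturated. Alb, the albumin gene of hepatocytes, was well above background on all 8 arrays, at 10.8 to 11.2. The CCl4 arrays lay in 1 row of a single slide and the TAA arrays in the other row, so agent and slide row cannot be told apart. The TAA 1-week NC array stood apart in neutrophil and Kupffer cell genes (S100a8 at 6.02, against −1.38 to 0.29 on the other 7 arrays). The class medians between the agents are therefore also given without both 1-week TAA arrays. Calls at 1 week have no such version, since these arrays are part of the comparison. Over all features the median difference between TAA and CCl4 was −0.13, and class values should be read against that shift.

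Class I molecules, found on almost every nucleated cell, show peptides from the cell's interior to CD8 T cells. The peptides are cut by the immunoproteasome (Psmb8, Psmb9, Psmb10), carried into the endoplasmic reticulum by the transporter Tap1/Tap2, and loaded with the help of tapasin (Tapbp) onto a heavy chain paired with beta-2 microglobulin (B2m). Class II molecules are largely a feature of dendritic cells, macrophages and B cells, and show peptides from endosomes to CD4 T cells. Their alpha and beta chains are held by the invariant chain Cd74 until cathepsin S (Ctss) and the peptide exchanger H2-DM prepare them for peptide, and the transactivator Ciita drives the whole class II group through boxes called X and Y in its promoters. In the liver, class II is known mainly from Kupffer cells, dendritic cells and some sinusoidal cells.

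Most class II genes had higher levels in TAA livers than in CCl4 livers. H2-Aa, H2-Ab1, H2-Eb1 and Cd74 differed by 0.87 ± 0.33 to 1.13 ± 0.28 on the log2 scale, which is 1.82-fold to 2.19-fold, and H2-DMb1 by a like amount. The mean differences of these 5 were positive at both weeks. Between the 1-week miR-29a arrays they were −0.12 to 0.19 for 4 of them and 0.58 for H2-DMb1. None of the 9 class II members passed the adjusted limit, as none of the 18534 features did (0% called), so these are differences with their errors and not calls. At an unadjusted p under 0.05 there were 11 of the 37 members, 5 of them class II and all 5 higher with TAA, beside 28.7% of all features.

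Promoter stretches of class II members are shown for 3 of the members without overlap or with a large difference between the agents, since class II genes are known for the X and Y boxes of their promoters. Sequences are from RefSeq (build GRCm38.p6), which held an entry for 7 of the 9 class II members and 25 of the 37 members in all. Capitals mark an X-like motif (AG, any 2 bases, AC, any base, GAT) and the Y motif (GATTGG). Each stretch runs from 110 to 31 bases before the start of transcription.
H2-Eb1: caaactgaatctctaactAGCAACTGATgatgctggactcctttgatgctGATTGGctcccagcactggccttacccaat
H2-DMb1: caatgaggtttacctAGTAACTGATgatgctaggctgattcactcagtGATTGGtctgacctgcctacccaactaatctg
H2-Aa: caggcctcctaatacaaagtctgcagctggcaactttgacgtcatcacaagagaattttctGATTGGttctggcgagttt
Positions are chr17:34305757-34305836 (plus strand) for H2-Eb1, chr17:34153081-34153160 (plus strand) for H2-DMb1 and chr17:34287854-34287933 (minus strand) for H2-Aa. Among 32851 promoter windows of 300 bases, 2.68% held the X-like motif and 16.1% the Y motif on either strand. The X-like motif followed by the Y motif 30 to 35 bases on, on the same strand, was found in 3 windows of the 32851 (0.009%): those of H2-Eb1, H2-DMb1 and H2-Eb2, all class II genes. The H2-Aa stretch held the Y motif without this X-like motif. Of the members with an entry, 6 of 7 class II and 9 of 17 class I genes held the Y motif on either strand. The X-like motif was held by 4 of the class II and 1 of the class I genes. A match describes letters and not a bound factor.

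H2-Aa, the alpha chain of the A molecule, read 0.08, 0.28, −0.40 and −0.23 on the CCl4 arrays and 1.25, 0.47, 1.04 and 1.49 on the TAA arrays. All 4 TAA values lay above all 4 CCl4 values, with the TAA 1-week miR-29a array closest to the CCl4 range. The difference was 1.13 ± 0.28 (unadjusted p = 0.0056, limma adjusted p = 0.13), at 0.68 ± 0.31 in week 1 and 1.58 ± 0.31 in week 2.

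H2-Ab1, the beta chain that pairs with it, read 4.03, 4.07, 3.60 and 3.67 in CCl4 livers and 5.29, 3.98, 4.43 and 5.13 in TAA livers. Here the groups overlapped: the TAA 1-week miR-29a array sat inside the CCl4 range while the other 3 TAA arrays were above it. The difference was 0.87 ± 0.33 (limma adjusted p = 0.15). A second H2-Ab1 probe, which shares most of its target with the first, gave 0.86.

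For H2-Eb1, the beta chain of the E molecule whose promoter is shown above, the CCl4 values were 3.66, 3.74, 3.26 and 3.16 and the TAA values 4.98, 3.63, 4.14 and 4.79. As for H2-Ab1, only the TAA 1-week miR-29a array lay inside the CCl4 range, and the difference was 0.93 ± 0.33 (limma adjusted p = 0.15). Its partner, the E alpha gene, is listed on the array as the pseudogene H2-Ea-ps and was well above background on 0 arrays.

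Cd74, the invariant chain, read 2.66, 2.69, 2.25 and 2.10 with CCl4 and 4.28, 2.80, 3.11 and 3.64 with TAA. The 4 TAA values again exceeded every CCl4 value, but the lowest of them did so by only 0.11. Its difference was 1.03 ± 0.32 (limma adjusted p = 0.13).

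H2-DMb1, a chain of the peptide exchanger, read 0.72, 0.60, 0.56 and 0.43 in the CCl4 group and 2.22, 1.18, 0.94 and 1.49 in the TAA group, without overlap. It differed by 0.88 ± 0.25 (limma adjusted p = 0.13). The other DM chain, H2-DMa, was dim, at −2.24, −1.79, −2.49 and −3.08 with CCl4 and −1.17, −3.15, −1.88 and −1.85 with TAA. Its groups overlapped widely and the difference was 0.39 ± 0.43, so the data do not show whether both DM chains moved alike.

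**Figure D1:**
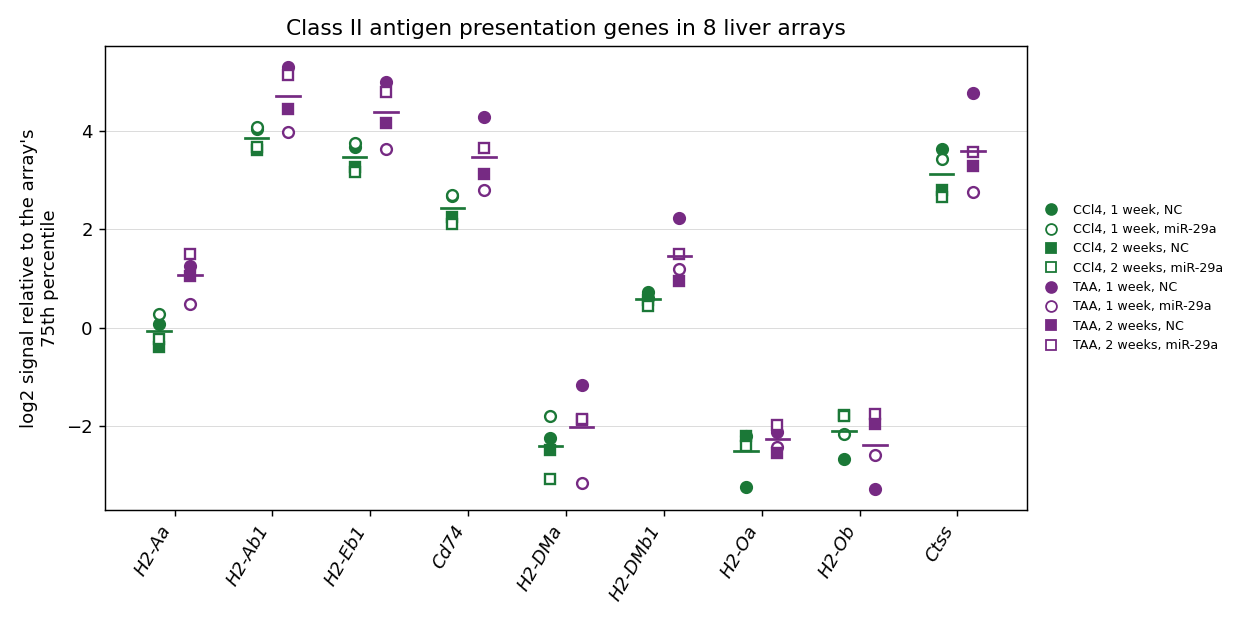
Level of the 9 class II members on each array, as log2 signal relative to the array's 75th percentile on the vertical axis. Green marks CCl4 and purple TAA, circles 1 week and squares 2 weeks, filled symbols NC and open symbols miR-29a, and bars the mean of 4 arrays; for H2-Aa, Cd74 and H2-DMb1 all TAA points lie above all CCl4 points, and the open purple circle (TAA 1-week miR-29a) is the lowest TAA point for 6 of the 9 genes.

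Cathepsin S (Ctss), the protease that trims the invariant chain, read 3.62, 3.42, 2.80 and 2.64 on CCl4 arrays and 4.76, 2.76, 3.27 and 3.56 on TAA arrays. The span between the TAA 1-week NC and miR-29a arrays, 2.00, exceeded the agent difference of 0.47 ± 0.37. H2-Oa and H2-Ob encode the DO molecule, a brake on DM that is mainly made by B cells. H2-Oa read −3.24, −2.21, −2.21 and −2.40 with CCl4 and −2.13, −2.42, −2.56 and −1.98 with TAA, and differed by 0.25 ± 0.25. H2-Ob alone of the 9 had a negative difference, at −2.67, −2.17, −1.78 and −1.80 with CCl4 and −3.27, −2.59, −1.96 and −1.75 with TAA, a difference of −0.29 ± 0.17. Its second probe, at −2.95, −2.33, −2.60 and −2.78 with CCl4 and −2.60, −2.68, −2.03 and −1.83 with TAA, differed by 0.38, so the direction for H2-Ob depends on the probe.

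Ciita, the transactivator of class II, did not pass the filter. It was well above background on 2 arrays, TAA 1-week NC (−0.94) and TAA 2-week NC (−1.64). On the other 6 it was not well above background, at −5.16 to −2.80. H2-DMb2, H2-Ea-ps and H2-Eb2 were well above background on 0 arrays.

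Of the 9 class II members 8 had a positive TAA minus CCl4 difference, with a median of 0.87, while 7139 of all 18534 features were positive. In 3 of the 9 all TAA arrays exceeded all CCl4 arrays, against 5.44% of all features, and in 0 were they all below, against 18.1%. At an unadjusted p under 0.05 stood 5 of the 9 and 28.7% of all features, and the smallest limma adjusted p of the 9 was 0.13. The median over the members was 1.17 in the 1-week NC pair, −0.12 in the 1-week miR-29a pair, 0.61 in the 2-week NC pair and 1.23 in the 2-week miR-29a pair. Without both TAA 1-week arrays the median was 0.92, which is the week 2 difference itself and no separate estimate. It ranged from 0.59 to 1.05 when each array was left out in turn. At week 2 alone, where the class II median was 0.92, 0 of the 37 members and 0% of all features were called by limma, and 4 of 37 members (H2-Aa, H2-Eb1 and Cd74 higher, H2-T24 lower) had an unadjusted p under 0.05, no larger a share than the 11.3% of all features.

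In whole liver, fewer cells of a type and less RNA per cell cannot be told apart, so the markers of class II bearing cells are set beside these values. Of 10 dendritic cell markers 9 were measured, and all 9 were higher with TAA (median 0.88, 0 called). Their summed level was 6.59 to 7.51 (log2) with CCl4 and 7.18 to 8.09 with TAA, most of it from Siglech, and Xcr1 was below the filter. All 10 Kupffer cell markers were higher with TAA (median 0.69, 0 called), summing to 5.40 to 6.30 with CCl4 and 5.90 to 8.37 with TAA. Apart from the TAA 1-week NC array, the TAA sums (5.90, 6.11 and 6.23) all lay inside the CCl4 range. The highest Kupffer sum and the highest class II median were both on the TAA 1-week NC array, and both were lower on the TAA 1-week miR-29a array, at 5.90 and −0.30. For infiltrating monocytes and macrophages 7 of 9 measured markers were higher with TAA (median 0.84, 0 called), with sums of 4.56 to 4.98 against 5.26 to 6.54. At 2 weeks the median difference was 0.05 for dendritic cells, 0.53 for Kupffer cells and 0.75 for monocytes and macrophages, beside 0.92 for class II.

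For B cells 3 of 5 measured markers were higher with TAA (median 0.01), with sums of 1.60 to 2.26 in CCl4 and 1.39 to 2.20 in TAA livers, and Pax5, Fcrla and Blk were below the filter. For T and NK cells 4 of 6 were higher (median 0.30), with sums of 5.30 to 5.69 against 5.07 to 5.57, most of it from Cd4. Over both weeks the CD3 genes Cd3e, Cd3d and Cd3g were higher by 0.41, 0.75 and 1.01 and Nkg7 by 0.20, without being called. Cd4 (−0.31) and Gzma (−0.19) were lower. Cd3d was well above background on 7 arrays and Cd3g on 5. The median of the 6, each minus its mean over the 8 arrays, was 0.06 to 0.32 on the TAA arrays. On the CCl4 arrays it was lower, at −0.27 to −0.07. Cd8a, Klrb1c and Gzmb were below the filter. Of 5 measured neutrophil markers 4 were higher with TAA (median 0.93, but 0.03 at 2 weeks). Their sums were 6.45 to 7.14 against 6.70 to 8.78, with the top on the TAA 1-week NC array. On the other arrays most of the sum came from Csf3r. The medians of the remaining lists were −0.10 for endothelium (1 of 6 higher), −0.15 for hepatocytes (2 of 6), −0.18 for stellate cells (1 of 5) and −0.12 for cholangiocytes (1 of 2). None of these markers was called over both weeks. At 1 week limma called 3 of 9 dendritic cell markers, 2 of 6 T and NK cell, 1 of 5 neutrophil and 1 of 5 stellate cell markers higher. The dendritic cell marker Flt3, among those called, was well above background on only 4 arrays. Its CCl4 1-week values, −4.15 and −4.05, lay below the dimmest probe marked well above background there (−3.56 and −3.42). Of 9 monocyte and macrophage markers it called 2 higher and 1 lower. It called 1 of 6 endothelial and 1 of 6 hepatocyte markers lower, and 0 for Kupffer cells, B cells and cholangiocytes. Of all features 35.7% were called at 1 week. The part of cell numbers in the class II difference was not tested.

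Interferon is the classical inducer of both classes. Of 10 measured genes induced by interferon gamma, 7 were higher with TAA over both weeks (median 0.39, 0 called). Among them were Gbp6 at 1.15 and Gbp5 at 0.94, while Irgm1 (−0.34) and Iigp1 (−0.32) were lower. The median was 0.03 at 1 week and 0.44 at 2 weeks. At 1 week limma called 2 of the 10 higher and 3 lower, beside 35.7% of all features. Gbp6 and Gbp5 differed by 2.08 and 1.59 at 1 week and by 0.22 and 0.29 at 2 weeks. Cxcl10 differed by −0.69 at 1 week and by 1.24 at 2 weeks. Of 10 measured genes induced by type I interferon 8 were higher, with a median of 0.12. Ifng itself was below the filter and Ido1 was well above background on 0 arrays. The part of interferon in either class was not tested.

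In class I, H2-T23, H2-Q2 and H2-Q8 were lower in TAA livers at 1 week, with differences of −1.16 to −1.05 on the log2 scale, against −0.18 to −0.15 at 2 weeks. H2-T23, H2-Q2 and H2-M11 passed the test of a change between the weeks (the agent by week term), which called 3 of 37 members against 9.81% of all features, a share no higher than the background. The median of this term was 0.25 for the 19 class I chains and 0.45 for the 9 class II members, and a difference between the classes was not tested. At 1 week alone, a comparison added after the data were seen, 12 of 37 members were called, 10 of them lower and 2 higher with TAA. That is near the background, since 35.7% of all features were called at 1 week (2343 higher, 4268 lower). All 12 were class I genes, which make up 26 of the 37 members. The standard errors at 1 week were 0.12 to 0.30 for class I and 0.20 to 0.57 for class II members.

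Class I heavy chains are close relatives, so the probe sequences decide what is measured, and those behind the week 1 group are shown. All are 60 bases long, from the deposited files, and capitals mark the longest run that 2 probes of different genes share.
H2-T23: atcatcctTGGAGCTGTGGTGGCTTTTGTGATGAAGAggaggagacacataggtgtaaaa
H2-K1, second probe: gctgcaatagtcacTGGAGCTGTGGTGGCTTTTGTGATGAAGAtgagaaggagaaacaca
H2-Q8: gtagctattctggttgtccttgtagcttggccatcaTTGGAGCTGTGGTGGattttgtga
H2-Q2: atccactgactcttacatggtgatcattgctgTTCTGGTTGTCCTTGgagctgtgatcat
H2-Q10, second probe: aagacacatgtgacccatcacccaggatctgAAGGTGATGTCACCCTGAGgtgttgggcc
H2-Q2, second probe: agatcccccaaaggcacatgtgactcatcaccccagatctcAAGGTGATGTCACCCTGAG
On mm9 the H2-T23 probe lies across chr17:36167338-36167574 (minus strand), the H2-K1 probe at chr17:34133984-34134043 (minus), the H2-Q8 probe at chr17:35565247-35565306 (plus) and the brighter H2-Q2 probe at chr17:35482113-35482172 (plus). The H2-T23 and H2-K1 probes share 29 bases, H2-Q8 shares 15 with H2-T23, and H2-Q2 shares 15 with H2-Q8. The second H2-Q10 and H2-Q2 probes share 19 bases, and the latter is placed at chr17:35460007-35460066, close to the H2-Q1 probe. Of 588 pairs of probes of different H2- genes, 9 shared at least 14 bases in a row, among 8 genes. Class I values of these genes may therefore contain signal of one another, and they cannot be counted as independent genes.

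H2-T23 encodes Qa-1, a nonclassical chain known as a ligand of the receptor NKG2A. It read 7.54, 7.57, 7.02 and 6.97 with CCl4 and 6.52, 6.27, 6.87 and 6.78 with TAA. Every TAA value was below every CCl4 value, and the 1-week arrays formed the extremes of both groups. TAA minus CCl4 was −1.16 ± 0.13 at 1 week (adjusted p = 0.005, limma) and −0.16 ± 0.13 at 2 weeks, and the agent by week term was 0.99 ± 0.19 (limma adjusted p = 0.039).

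H2-Q2, a chain of the Q region, followed the same course. Its CCl4 values were 7.15, 7.15, 6.65 and 6.60 and its TAA values 6.19, 5.92, 6.49 and 6.45, again without overlap. The term was 0.94 ± 0.19 (limma adjusted p = 0.043), from −1.09 ± 0.13 at 1 week and −0.15 ± 0.13 at 2 weeks.

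H2-M11, of the M region at the far end of the complex, read 0.79, 1.13, 0.13 and 0.30 in CCl4 and −0.02, −0.23, 0.46 and 0.34 in TAA livers. At 1 week both TAA arrays were below both CCl4 arrays, and at 2 weeks the TAA arrays were slightly the higher. Its term was 1.26 ± 0.25 (limma adjusted p = 0.043), from −1.08 ± 0.18 at 1 week and 0.18 ± 0.18 at 2 weeks.

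These 3 calls were not stable. With quantile normalization the term was 0.78 for H2-T23 (limma adjusted p = 0.089) and 0.72 for H2-Q2 (limma adjusted p = 0.11), and with median scaling 0.86 for H2-Q2 (limma adjusted p = 0.052). Leaving out each array in turn gave between 0 and 11 members called for the agent by week term: 0 without any 1 of the 4 CCl4 arrays or either TAA 2-week array, and 11 without the TAA 1-week NC array. The count of 12 at 1 week also changed in most fits with an array left out, as did the count over all features. Each of these fits left 1 array in an agent and week group. Their counts are therefore not read as a result about the members. Without a filter on dim probes the 1-week calls of B2m, H2-M2, H2-Q4, H2-T9 and Tap1 were lost (limma adjusted p = 0.068 to 0.078). With quantile normalization the 1-week differences of H2-T23, H2-Q2 and H2-Q8 were −0.74, −0.66 and −0.66, still called.

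**Figure D2:**
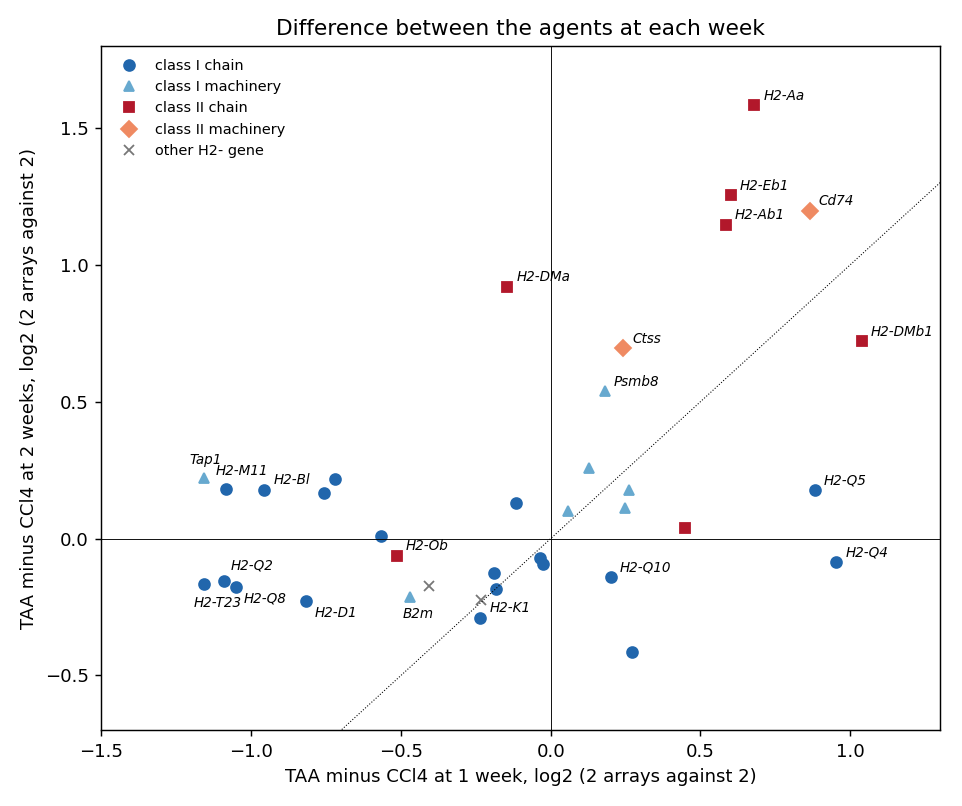
TAA minus CCl4 at 1 week (horizontal axis) and at 2 weeks (vertical axis) for the 37 members, in log2 units, each from 2 arrays against 2; symbols give the role and the dotted line marks equal differences. Class I chains spread from −1.16 to 0.95 along the horizontal axis and stay between −0.41 and 0.22 on the vertical one. H2-Aa, H2-Eb1, H2-Ab1 and Cd74 stand above the line with positive differences at both weeks. Class I chains such as H2-T23, H2-Q2 and H2-M11 also stand above it, with negative differences at 1 week.

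H2-Q8, whose probe shares 15 bases with that of H2-T23, read 5.95, 5.87, 5.44 and 5.33 with CCl4 and 5.05, 4.68, 5.24 and 5.18 with TAA. The groups did not overlap, and the difference was −1.05 ± 0.14 at 1 week (limma adjusted p = 0.0063) against −0.18 ± 0.14 at 2 weeks. H2-D1, one of the classical transplantation antigens, read 7.02, 6.92, 6.60 and 6.58 with CCl4 and 6.35, 5.95, 6.41 and 6.32 with TAA. It too had all TAA arrays below all CCl4 arrays, at −0.82 ± 0.15 at 1 week (limma adjusted p = 0.013) and −0.23 ± 0.15 at 2 weeks. With quantile normalization the 1-week value was −0.39 and not called (limma adjusted p = 0.15).

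H2-Bl read 5.54, 5.69, 5.07 and 5.18 with CCl4 and 4.85, 4.47, 5.40 and 5.21 with TAA. H2-T9, a T region chain, read 2.42, 2.56, 2.12 and 2.20 with CCl4 and 1.93, 1.54, 2.33 and 2.33 with TAA. In both genes the 2 TAA 1-week arrays were the lowest of the 8. The 1-week differences were −0.96 ± 0.18 (limma adjusted p = 0.014) and −0.76 ± 0.17 (limma adjusted p = 0.025). At 2 weeks the differences were 0.18 ± 0.18 and 0.17 ± 0.17. Both 1-week calls were lost with quantile normalization, at −0.60 for H2-Bl (limma adjusted p = 0.073) and −0.53 for H2-T9 (limma adjusted p = 0.091).

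H2-M2 read 6.28, 6.39, 5.98 and 6.07 with CCl4 and 5.86, 5.68, 6.10 and 5.98 with TAA on a probe designed on a cDNA clone that is described as holding frame-shift errors. It was called at 1 week at −0.57 ± 0.14 (limma adjusted p = 0.031). The other H2-M2 probe, well above background on 5 arrays, gave 0.98 at 1 week, and with the mean of both probes the gene's difference turned to 0.21. No direction can be given for H2-M2.

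H2-Q4 and H2-Q5 were the 2 members called higher with TAA at 1 week. H2-Q4 read 5.24, 5.27, 6.16 and 5.87 with CCl4 and 5.93, 6.49, 6.12 and 5.74 with TAA, with its low values confined to the CCl4 1-week arrays. H2-Q5, whose accession is that of a noncoding RNA, read 2.96, 3.05, 3.28 and 3.32 with CCl4 and 3.75, 4.02, 3.31 and 3.65 with TAA, highest on the TAA 1-week arrays. The 1-week differences were 0.95 ± 0.25 (limma adjusted p = 0.037) and 0.88 ± 0.14 (limma adjusted p = 0.0094), and those at 2 weeks −0.09 ± 0.25 and 0.18 ± 0.14.

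H2-K1 and H2-Q10 differed little between the agents on their brightest probes. H2-K1, the classical K antigen, read 8.98, 8.93, 8.89 and 8.94 with CCl4 and 8.61, 8.83, 8.61 and 8.64 with TAA. The groups did not overlap, but the distance was small, at −0.26 ± 0.11 (limma adjusted p = 0.18). H2-Q10, a secreted class I protein made by the liver, read 8.75, 8.91, 8.91 and 8.88 with CCl4 and 8.96, 9.11, 8.78 and 8.72 with TAA. The TAA values lay on both sides of the CCl4 range, higher in both 1-week pairs and lower in both 2-week pairs. Its difference over both weeks was 0.03 ± 0.13.

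The second probes of both genes gave other values. That of H2-K1 starts at base 1021 of the transcript, against 1488 for the brighter one, and shares its 29 bases with the H2-T23 probe. It read 7.26, 7.32, 6.86 and 6.83 with CCl4 and 6.36, 6.19, 6.75 and 6.68 with TAA, a difference of −1.01 at 1 week and −0.13 at 2 weeks. The second H2-Q10 probe starts at base 645, against 1413, and differed by −0.77 at 1 week where the brighter probe gave 0.20. The second H2-Q2 probe, from base 608, gave −0.79 where the brighter gave −1.09. The 1-week difference thus depended on the probe for H2-K1 and H2-Q10, and whether shared sequence or position in the transcript lies behind it was not tested.

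**Figure D3:**
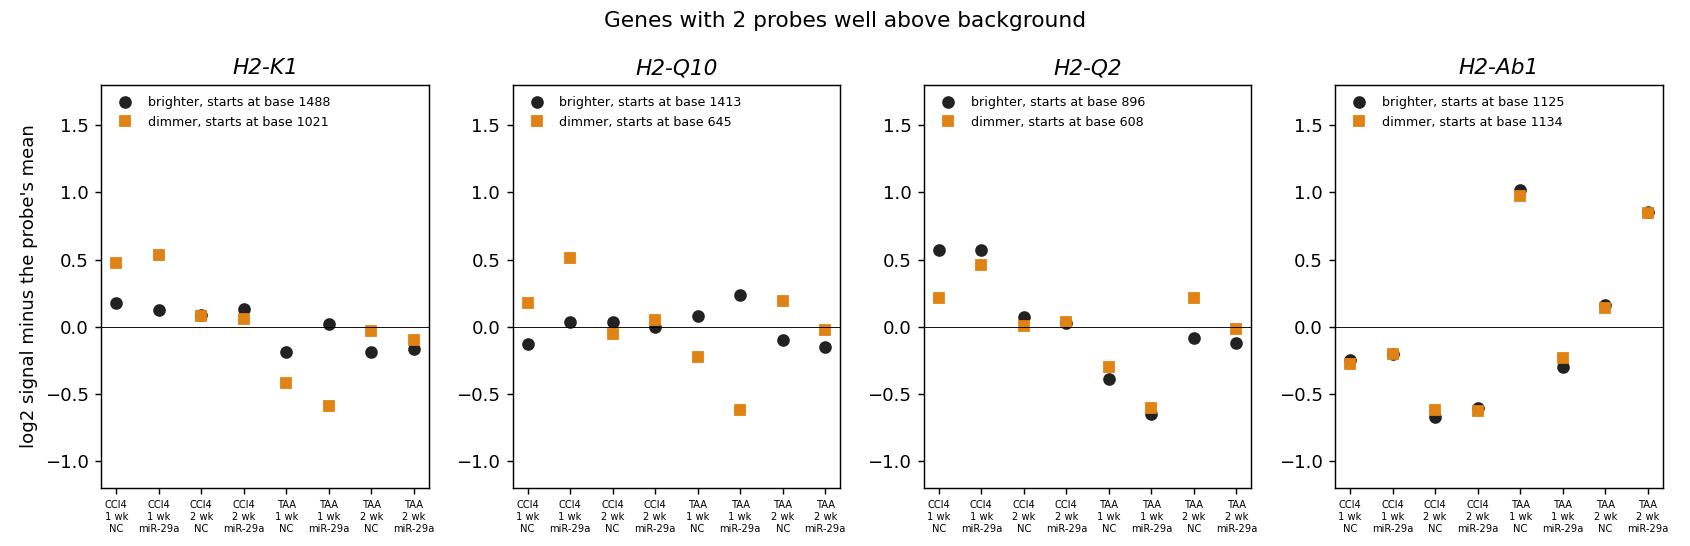
Log2 signal of each probe minus that probe's mean over the 8 arrays (vertical axis), by array (horizontal axis), for 4 genes with 2 probes well above background; black circles are the brighter probe and orange squares the dimmer one, with the base of the transcript where each starts. For H2-K1 and H2-Q10 the probes part on the 1-week arrays, while the 2 H2-Ab1 probes, which overlap, run together.

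H2-M3, which presents formylated peptides, read −0.62, −0.46, −0.56 and −0.82 with CCl4 and −0.30, −1.01, −0.61 and −0.51 with TAA, a difference of 0.01 ± 0.18. The remaining chains, H2-K2, H2-Q1, H2-Q7, H2-T3, H2-T10 and H2-T24, differed by −0.25 to −0.05 over both weeks, and none was called in any comparison. H2-K2 (a noncoding transcript by its accession) and H2-Q7 share 28 bases on probes and were nearly flat, at −0.06 ± 0.11 and −0.05 ± 0.11. H2-T10 had a 1-week difference of −0.72 ± 0.25 without passing (limma adjusted p = 0.074).

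Some class I promoters carry the kappa B element known from H2-K1, and its surroundings are shown for the 3 members that held it. Capitals mark the motif (GGG, any base, ATTCCC), found in 0.183% of the 32851 windows on either strand.
H2-K1: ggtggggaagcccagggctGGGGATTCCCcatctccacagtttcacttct
H2-D1: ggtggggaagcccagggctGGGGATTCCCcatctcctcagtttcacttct
H2-Q7: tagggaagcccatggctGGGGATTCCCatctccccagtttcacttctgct
The stretches are chr17:34000428-34000477 (minus strand, H2-K1), chr17:35262904-35262953 (plus strand, H2-D1) and chr17:35439005-35439054 (plus strand, H2-Q7) on GRCm38.p6. Of 17 class I members with a RefSeq promoter 3 held the motif, while H2-Q2, H2-T23 and H2-Q10 did not within the window. At 1 week H2-D1 differed by −0.82 ± 0.15, H2-K1 by −0.23 ± 0.13 and H2-Q7 by −0.04 ± 0.13 on their brightest probes, and the second H2-K1 probe gave −1.01.

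**Figure D4:**
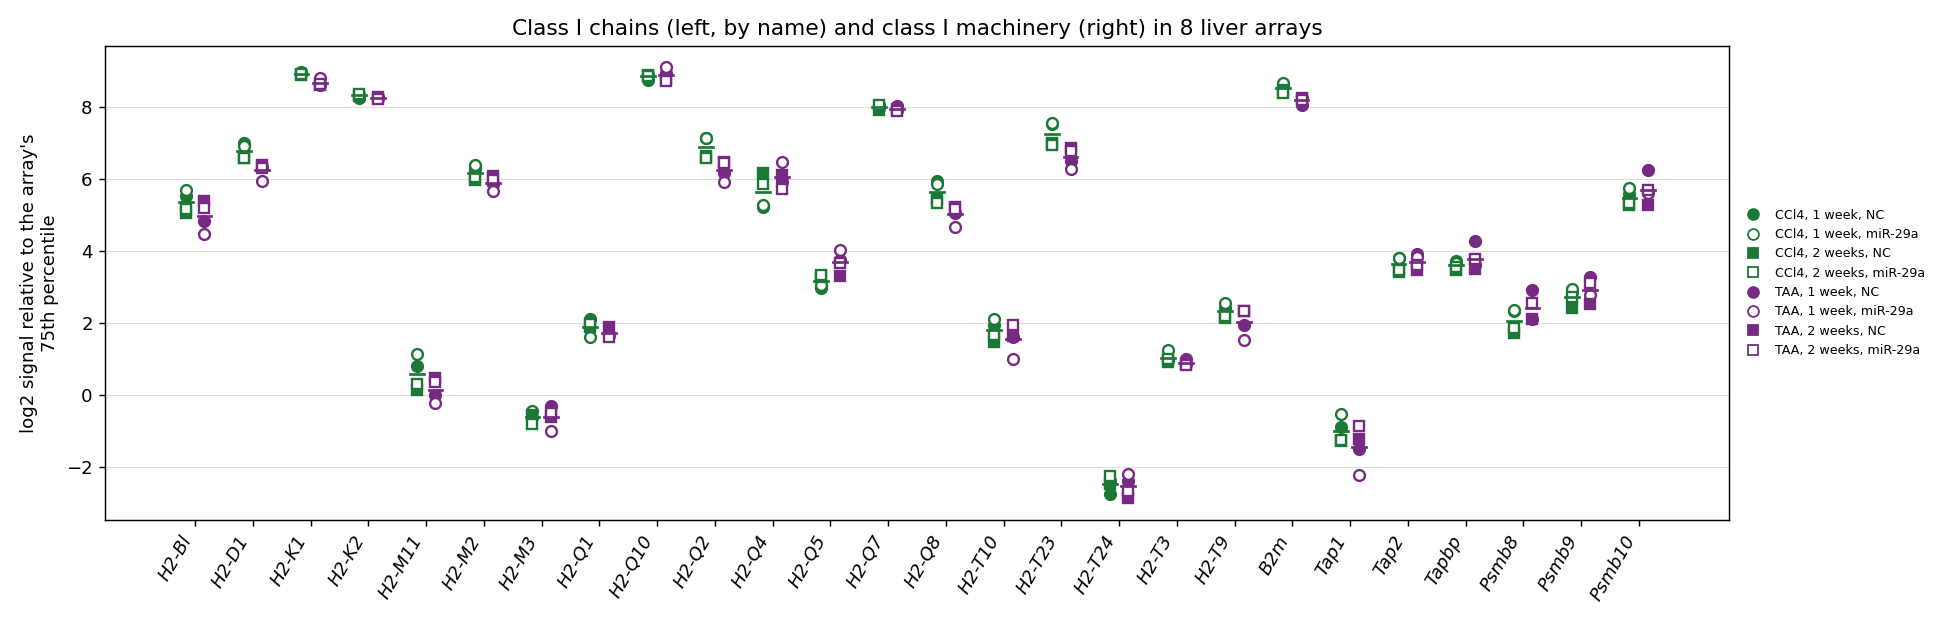
Level of the 19 class I chains and the 7 machinery genes on each array, as log2 signal relative to the array's 75th percentile (vertical axis). Colours and symbols are those of the class II plot and bars are means of 4 arrays; in H2-T23, H2-Q2, H2-Q8 and H2-D1 all purple points lie below all green ones, and H2-Q10, H2-K2 and H2-Q7 show nearly level groups.

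In the class I machinery 2 of 7 genes were called at 1 week, both lower with TAA, beside 35.7% of all features. B2m, the common light chain, read 8.60, 8.67, 8.49 and 8.41 with CCl4 and 8.07, 8.26, 8.27 and 8.21 with TAA. All TAA values were below all CCl4 values, and the difference was −0.34 ± 0.12 over both weeks and −0.47 ± 0.14 at 1 week (limma adjusted p = 0.047). This call was lost with quantile normalization (−0.20, limma adjusted p = 0.24) and with median scaling (−0.39, limma adjusted p = 0.065). Tap1, the other machinery gene called at 1 week, read −0.91, −0.54, −1.29 and −1.26 with CCl4 and −1.52, −2.24, −1.23 and −0.88 with TAA, with its lowest value on the TAA 1-week miR-29a array. It differed by −1.16 ± 0.29 at 1 week (limma adjusted p = 0.032) and 0.22 ± 0.29 at 2 weeks. With normexp background correction the 1-week value was −0.50, still called.

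Its partner Tap2 was not called, at 3.80, 3.82, 3.42 and 3.47 with CCl4 and 3.91, 3.83, 3.48 and 3.62 with TAA, a difference of 0.08 ± 0.11. Tapasin (Tapbp) read 3.73, 3.67, 3.49 and 3.57 with CCl4 and 4.27, 3.62, 3.51 and 3.77 with TAA, a difference of 0.18 ± 0.17. Tapbp was highest on the TAA 1-week NC array, and the groups overlapped.

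The immunoproteasome subunits are induced by interferon gamma and replace the constitutive ones. Psmb8 read 2.32, 2.35, 1.73 and 1.85 with CCl4 and 2.92, 2.12, 2.12 and 2.54 with TAA, and differed by 0.36 ± 0.22. Psmb9 read 2.86, 2.93, 2.41 and 2.73 with CCl4 and 3.28, 2.77, 2.54 and 3.11 with TAA, and differed by 0.19 ± 0.19. Psmb10 read 5.60, 5.75, 5.27 and 5.35 with CCl4 and 6.26, 5.61, 5.28 and 5.70 with TAA, and differed by 0.22 ± 0.19. In all 3 the TAA 1-week NC array was the highest of the 8, and the groups overlapped.

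Over all 26 class I members 17 were lower and 9 higher with TAA, with a median of −0.17 against −0.13 over all features. Their median was −0.25 for the 19 chains and 0.18 for the 7 machinery genes. In 6 of the 26 all TAA arrays were below all CCl4 arrays (18.1% of all features), and in 0 were they all above (5.44%). The class I median was −0.03 without both TAA 1-week arrays, beside −0.08 over all features. With quantile normalization it was −0.05, as was the median over all features.

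**Figure D5:**
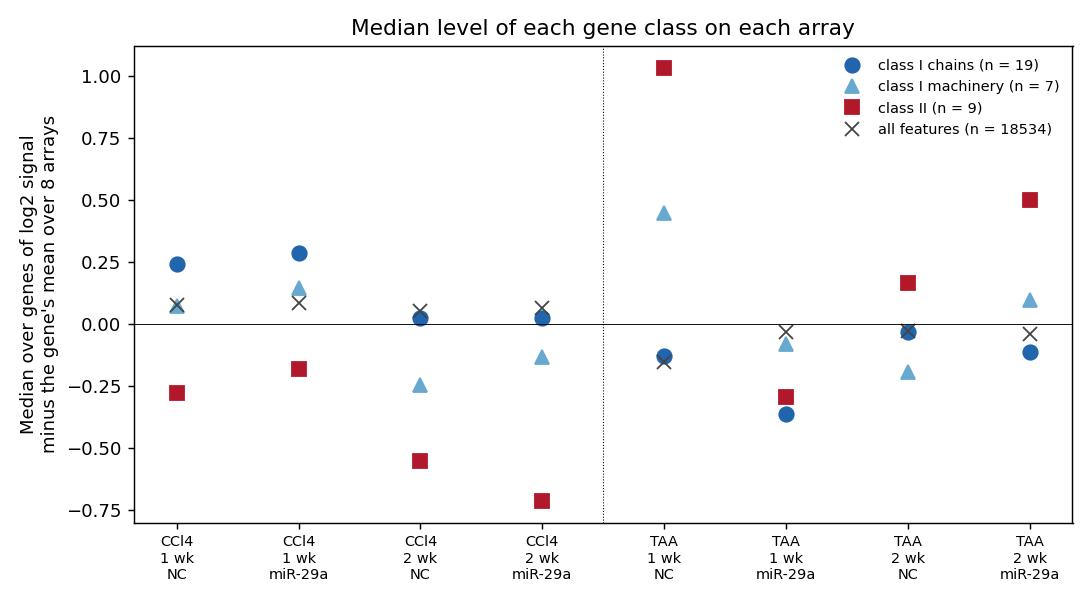
Median over the genes of a class of the log2 signal minus each gene's mean over 8 arrays (vertical axis), on each array (horizontal axis), for class I chains, class I machinery, class II and all features. Class II runs from −0.71 (CCl4 2-week miR-29a) to 1.04 (TAA 1-week NC), while class I chains stay between −0.36 and 0.29.

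Set side by side on each array, the class II median minus the class I median was −0.43, −0.33, −0.50 and −0.72 on the CCl4 arrays and 1.07, −0.18, 0.26 and 0.56 on the TAA arrays. All 4 TAA values exceeded all 4 CCl4 values. Machinery and class II were both highest on the TAA 1-week NC array, at 0.45 and 1.04, while the class I chains there stood at −0.13. On the TAA 1-week miR-29a array all 3 were below 0, at −0.08, −0.30 and −0.36. Class I chains were highest on the CCl4 1-week miR-29a array, and class II was highest on the TAA 1-week NC array.

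Between 1 and 2 weeks of observation 0 members passed the limma limit, and 0% of all features did. Of the 37 members 2 had an unadjusted p under 0.05, beside 5.19% of all features. H2-Ob was higher at 2 weeks in all 4 pairs, by 0.85 ± 0.17 (limma adjusted p = 0.79), while its second probe averaged 0.33 and was lower in the CCl4 miR-29a pair. Tap2 was lower at 2 weeks in all 4 pairs, at −0.34 ± 0.11 (limma adjusted p = 0.87). The other machinery genes except Tap1 (0.13) had negative differences as well, Psmb10 of −0.40 ± 0.19 and Psmb8 of −0.37 ± 0.22, and did not pass. The median was −0.06 for class I, −0.16 for class II and 0.03 for all features.

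Within an agent no week difference of a member passed. H2-T23 was −0.56 ± 0.13 in CCl4 and 0.43 ± 0.13 in TAA livers, and H2-M11 −0.75 ± 0.18 and 0.52 ± 0.18. The class II median was −0.49 in CCl4 and 0.15 in TAA livers, but the latter hid −0.84 in the NC pair and 0.85 in the miR-29a pair. In CCl4 livers limma called 0 of 37 members (1.08% of all features) and in TAA livers 0 of 37 (0% of all features), with 9 and 10 members at an unadjusted p under 0.05, beside 18.5% and 27% of all features.

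For miR-29a against NC limma called 0 members, and 0 had an unadjusted p under 0.05, beside 0% and 2.83% of all features. The class I median was 0.00 and the class II median −0.18. The class II median was 0.08 in the CCl4 1-week pair, −0.13 in the CCl4 2-week pair, −1.31 in the TAA 1-week pair and 0.53 in the TAA 2-week pair. Cd74, for example, differed by 0.03, −0.16, −1.48 and 0.53 in these pairs, and Ctss by −0.20, −0.16, −2.00 and 0.29. The class II medians were thus near 0 in CCl4 livers and of opposite sign at the 2 weeks in TAA livers. The class II median turned to 0.07 when the TAA 1-week NC array was left out and to 0.19 when its miR-29a partner was. Neither the oligonucleotide by agent nor the oligonucleotide by week term called a member by limma (0% of all features for each), and 0 members had an unadjusted p under 0.05 for either, beside 1.39% and 1.92% of all features. H2-DMa had the largest mean difference among the 37, at −0.52 ± 0.43, and its pairs ranged from −1.98 to 0.45.

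Other genes of the pathway were taken from a list of 42, of which 38 were measured. Between the agents 15 were higher and 23 lower with TAA (median −0.07), 0 were called, and 14 had an unadjusted p under 0.05, beside 28.7% of all features. At 1 week 9 were called, 3 higher and 6 lower, beside the 35.7% of all features. The higher ones were Nlrc5, the transactivator of class I (1.58 ± 0.17, limma adjusted p = 0.0048), Marchf1, a ligase that removes class II from the cell surface (2.86 ± 0.39), and the costimulator Cd80 (1.75 ± 0.20). The lower ones were Rfxank, a subunit of the factor that binds the X box (−0.92 ± 0.13), Nfyb, a subunit of the factor that binds the Y box (−0.63 ± 0.12), the proteasome activator Psme3 (−2.18 ± 0.23), the protease Ctsl (−0.89 ± 0.13), the antibody receptor Fcgrt (−1.37 ± 0.15) and Tapbpl (−0.81 ± 0.23), a relative of tapasin. For the agent by week term 2 of 38 were called, beside 9.81% of all features: Nlrc5 at −1.68 (limma adjusted p = 0.028) and Fcgrt at 1.58 (limma adjusted p = 0.027). Rfx5, Cd40 and Ifng were below the filter. Between the weeks and between the oligonucleotides 0 of the 38 were called.

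Of the 13 members below the filter, 9 were class I chains: H2-M1, H2-M5, H2-M9, H2-M10.1, H2-M10.2, H2-M10.3, H2-M10.4, H2-M10.6 and H2-T18. Of these 6 were well above background on 0 arrays, H2-M10.2 and H2-T18 on 1 and H2-M9 on 2. The 2 H2- genes outside the MHC chains, H2-Ke2 and H2-Ke6, differed by −0.29 ± 0.12 and −0.23 ± 0.14 between the agents and were called in no comparison.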

How the data were processed

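Total RNA of 8 liver samples was hybridised to 1-colour (Cy3) mouse arrays with 62976 spots. The deposited scanner tables give linear spot intensity, processed by Agilent Feature Extraction 10.10.1.1 per the file headers (background-subtracted and detrended, with no scaling between arrays), and marks (other columns) for outlier spots and for spots well above background. Probe positions are on mm9 per the file headers. A deposited log2 value table of the same arrays was set against the scanner values: it equals the log2 processed signal minus a constant per array for 99.8% of probes within 0.01, so its scale and direction are known and the source of the constant is not given in the sources used here. Its column medians, in the array order of the report, were −4.03, −4.06, −3.86 and −3.80 for CCl4 and −3.44, −3.46, −3.72 and −3.56 for TAA.

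Control spots and outlier spots (126 to 196 per array) were left out, spots of a probe were averaged, and each array's 75th percentile was subtracted on the log2 scale. Of 55657 probes 27641 were named through their accession, 3400 by symbol and 321 by an older symbol, and 24295 kept the file's name. The brightest probe of a gene was used where it was well above background on at least 4 arrays. A model with additive terms for agent, for week and for oligonucleotide (4 residual degrees of freedom), and models with 1 interaction term added (3 residual degrees of freedom), were fitted to 18534 features with limma 3.58.1 in R 4.3.3, with Benjamini-Hochberg adjustment at 0.05. Differences within a week or an agent were added after the data were seen. They came from a model with agent by week cells and an oligonucleotide term (3 residual degrees of freedom). The fit was tested on simulated data.

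The members and the gene lists were chosen with earlier results of these data known. Full values were given for each member called in a fitted term and for the defining genes of each role, and the rest by range. Alternatives were normexp background correction (offset 50), quantile normalization, median scaling, the deposited values, other filters on dim probes, the mean of a gene's probes, matched combinations as a block, no oligonucleotide term, and leaving out arrays. All arrays were on 1 slide in 1 scan. The number of arrays limits the precision.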

Additional observations from a re-analysis of the deposited data

Results flagged for a closer look

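In 3 class I chains the TAA minus CCl4 difference changed between week 1 and week 2, by the test of that change itself (limma, agent by week term): H2-T23 by 0.99, H2-Q2 by 0.94 and H2-M11 by 1.26 on the log2 scale. H2-T23 and H2-Q2 have probes that share 14 bases, and 9.81% of all features had such a term. None of the 3 calls held when a CCl4 array or a 2-week TAA array was left out.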

How the results depend on the processing

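The counts of members called for agent, week and oligonucleotide were 0 under every alternative run. For the agent by week term the count of 3 became 7 with normexp background correction, 1 with quantile normalization, 5 with probes well above background on all 8 arrays and 0 without a filter on dim probes, where 34768 features were tested. The counts over all features were 3413, 1546, 2210 and 0 in the same order, against 1819. Leaving out each array in turn gave 0 to 11 members. At 1 week the count of 12 became 7 without the filter, and 2 to 21 with an array left out. Of all features called at 1 week 35.4% were higher with TAA, and 46.7% when the miR-29a array of CCl4 at 1 week was left out. The class I median between agents was −0.031 without both TAA 1-week arrays, which leaves the week 2 difference. H2-M2 at 1 week reversed to 0.21 with the mean of its probes. Apart from the effect of fewer arrays or more features in a fit, the cause was not tested. Of the other values for single genes 346 kept their direction and side of the limit and 76 kept the direction but lost the call. The median over all features was −0.13 between agents, −0.05 with quantile normalization and −0.08 with median scaling. The block of matched combinations changed no call. A slide or scan term was not run, with 1 slide and 1 scan, and the agent by week term could not be fitted without both TAA 1-week arrays. Values near background, such as H2-DMa and H2-Ob, are the least certain.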
